A study of Mus musculus with 6 samples.

Results

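The genes described here are 7 genes best known from neurons, glia or sensory signalling, namely Nmur1, Trpv1, Lypd1, Sv2c, B3gat2, Phyhip and Fabp7. They were taken by symbol from a deposited table of 196 genes measured by RNA-seq in mouse testis, and all 7 were found in it. Male C57BL/6 mice, 6 weeks old on arrival and acclimated for 10 days, were given either normal saline or Nano-Sb2O3 (nanoparticles of antimony trioxide) by intranasal instillation for 16 days. Testis RNA was sequenced from the saline group (0 mg/kg/d) and from the group at 7.5 mg/kg/d. Each group has 3 libraries, called CON and T in the table, where the columns of group means equal the means of the libraries con_1 to con_3 and of n1_4, n3_3 and n3_6 for all 196 genes. The sample titles go the other way: con_1 to con_3 are titled as the Sb2O3 high-dose group, and n1_4, n3_3 and n3_6 as control mice. In the study's own naming T is the exposed group, which follows the library names. The groups are called CON and T throughout, numbered by the replicates in the titles. The values alone do not settle the conflict, and every direction relative to exposure would invert if the titles were right. Apart from the exposure no genotype or treatment separates the groups, and bulk testis RNA mixes germ cells with all somatic cells of the organ.

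Neuronal signalling uses peptide ligands and their receptors, ion channels that turn heat or chemical stimuli into current, and vesicle proteins that serve transmitter release. Glia and developing neurons add surface carbohydrates and fatty acid carriers. Many of these genes are also transcribed outside the nervous system. Nmur1 encodes a G protein-coupled receptor for the neuropeptides neuromedin U and neuromedin S, and Trpv1 encodes the cation channel opened by heat and capsaicin in pain-sensing neurons. Lypd1 encodes a lipid-anchored Ly6 protein that binds nicotinic acetylcholine receptors. Sv2c encodes a glycoprotein of synaptic vesicles. B3gat2 encodes a glucuronyltransferase that makes the HNK-1 carbohydrate of neural cell adhesion molecules. Phyhip encodes a brain-enriched protein that binds phytanoyl-CoA hydroxylase, and Fabp7 encodes the brain-type fatty acid binding protein of radial glia and astrocytes.

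All 7 genes are annotated as protein-coding in GENCODE vM39 on GRCm39, the build named for the alignment, and 3 of them lie on chromosome 1. The 250 bases before the most upstream annotated start of a gene, on its own strand, held no annotated exon for 3 of these genes, Trpv1, B3gat2 and Fabp7, and these windows are shown because they are the stretches next to the transcribed sequence that belong to no other gene. Capitals mark exact matches on either strand to 5 short motifs. The CCAAT box was searched by its own letters. The GC box was searched as GGGCGG, which Sp1 family factors bind. The TATA box was searched as TATAAA, the site of TATA-binding protein. The cAMP response element was searched as TGACGTCA, the palindrome bound by CREB. The E-box was searched as CACGTG, which binds basic helix-loop-helix factors, and none of these letter strings contains another. The windows lie at chr11:73124868-73125117 on the plus strand, at chr1:23800584-23800833 on the plus strand and at chr10:57660706-57660955 on the plus strand of GRCm39.
Trpv1: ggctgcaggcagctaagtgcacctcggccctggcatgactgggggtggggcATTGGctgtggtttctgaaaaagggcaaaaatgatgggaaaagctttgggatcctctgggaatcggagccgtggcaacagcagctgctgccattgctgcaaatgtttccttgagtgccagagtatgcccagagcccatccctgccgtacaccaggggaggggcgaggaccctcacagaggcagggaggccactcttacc
B3gat2: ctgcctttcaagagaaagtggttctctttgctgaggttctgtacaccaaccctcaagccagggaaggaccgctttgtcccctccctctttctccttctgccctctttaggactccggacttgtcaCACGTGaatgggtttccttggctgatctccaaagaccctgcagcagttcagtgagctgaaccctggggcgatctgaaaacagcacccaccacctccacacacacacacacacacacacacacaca
Fabp7: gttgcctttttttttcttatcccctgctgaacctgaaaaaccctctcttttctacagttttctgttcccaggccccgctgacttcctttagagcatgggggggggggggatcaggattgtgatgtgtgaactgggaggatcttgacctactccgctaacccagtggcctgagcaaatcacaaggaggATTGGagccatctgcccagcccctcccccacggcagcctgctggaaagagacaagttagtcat
The Trpv1 and Fabp7 windows each held 1 CCAAT match, which 36.1% of 21770 windows of protein-coding genes hold. The B3gat2 window held 1 E-box match, found in 5.69% of them. The 21770 windows were taken whether or not they held an exon, unlike the 3 shown here. Of the windows not shown, Sv2c held 2 GC box matches, and Phyhip held 3 GC box matches and 1 E-box match. Nmur1 and Lypd1 held 0 matches to any of the motifs. TATAAA was in none of these 3 windows and in 12.5% of all windows, GGGCGG was in none of the 3 and in 29.9% of all, and the cAMP response element was in none of the 3 and in 1.31% of all. The GC content was 59.2% for Trpv1, 53.6% for B3gat2 and 53.2% for Fabp7, where the median of all windows was 51.2%. These matches are descriptions of the letters in the windows.

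The values are TPM (transcript abundance scaled for gene length and library total), so levels of different genes can be set side by side, but the number of reads behind a value is unknown. The table holds genes that the authors had listed as differing between the groups, so a difference in it is partly a result of selection and genes that did not differ were not analysed here. Summed TPM of the listed genes ran from 880 to 1776 per library, and 22 to 49 of the 196 genes were listed at 0 in a library, more of them in each T library than in any CON library. By difference of mean log2(TPM + 1), 3 of the 7 genes were higher in T (Nmur1, Trpv1 and Lypd1), as were 34.2% of all listed genes, and 4 were lower (Sv2c, B3gat2, Phyhip and Fabp7). In limma with Benjamini-Hochberg adjustment over the 196 genes, 0 of the 7 had an adjusted p-value under 0.05 with an absolute difference of at least 1, where 4.08% of all listed genes had both. The adjusted p-value alone was under 0.05 for 0 of the 7 and for 8.16% of all listed genes. Before adjustment, 1 of the 7 (Nmur1) had p under 0.05 and a difference of at least 1, beside 25.5% of all listed genes, and Nmur1 was also the only one of the 7 with an unadjusted p under 0.05, beside 46.9%. The CON and T values did not overlap for 3 of the 7 genes, 2 with T above CON (Nmur1 and Lypd1) and 1 with T below CON (B3gat2). Over all listed genes the groups did not overlap for 62.8%, with T above CON for 20.4% and T below CON for 42.3%. The median difference of the 7 genes was -0.21, beside -0.54 over all listed genes, and the median absolute difference was 0.44 beside 0.79. In bulk RNA, fewer cells of a type and less RNA per cell cannot be told apart.

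**Figure D1:**
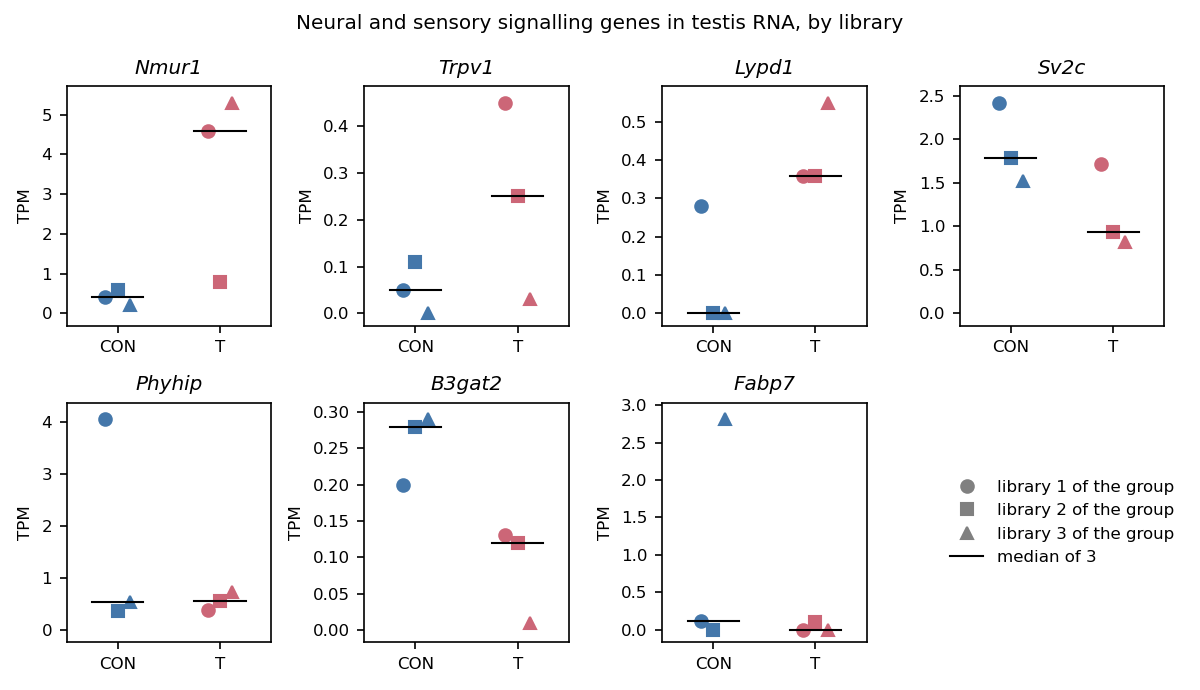
TPM of each gene in the 3 CON and the 3 T libraries, 1 panel per gene with its own linear axis; circles, squares and triangles are libraries 1, 2 and 3 of a group and lines are medians of 3. The groups are apart for Nmur1, Lypd1 and B3gat2, and single CON libraries stand high for Phyhip (4.06 TPM) and Fabp7 (2.81 TPM).

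The receptor gene Nmur1 (ENSMUSG00000026237, chromosome 1 from 86313284 to 86353950, minus strand) had the largest absolute difference of the 7 on the log2(TPM + 1) scale, though not with a pseudocount of 0.01, where Lypd1 (3.79) exceeded it (2.79), nor as a ratio of group means, where Fabp7 did. It had 0.41, 0.59 and 0.22 TPM in CON libraries 1, 2 and 3 and 4.59, 0.78 and 5.30 TPM in T libraries 1, 2 and 3. Every T library was above every CON library, but T library 2 lay close to the CON libraries and far from the other T libraries. Nmur1 averaged 0.407 ± 0.185 TPM in CON and 3.56 ± 2.43 TPM in T (SD, n = 3 each), a ratio of 8.75. T exceeded CON by 1.51 on the log2(TPM + 1) scale (limma standard error 0.52), the exact two-sided permutation p-value was 0.10, which is the smallest that 3 libraries against 3 can give, and the limma adjusted p-value was 0.0863. Nmur1 ranked 22 of 196 by absolute difference and 69 of 196 by limma p-value. Without T library 2 the difference was 2.09 with a limma adjusted p-value of 0.00907. That library held the T value nearest to CON, so leaving it out was bound to widen the difference and narrow the spread in T. With any other library left out the limma adjusted p-value lay between 0.130 and 0.200. Over all alternatives it lay between 0.00907 and 0.200, adjusted over genes already listed as differing. T library 2 was the lowest T library for 53 of the 148 genes without tied T values (35.8%) and the highest for 53, but it differed from the other T libraries in its lower summed TPM (880), in fewer genes at 0 (40, against 48 and 49) and in a higher sum of the fat cell markers Fabp4, Cfd and Car3 (3.82 TPM, against 0.40 and 1.97). Without it limma called 25 of the 196 genes in place of 8, and the part of these differences in its Nmur1 value was not tested.

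The channel gene Trpv1 (ENSMUSG00000005952, chromosome 11 from 73125118 to 73152068, plus strand) was at the lower end of the table. It had 0.05 and 0.11 TPM in CON libraries 1 and 2, was listed at 0 in CON library 3, and had 0.45, 0.25 and 0.03 TPM in the T libraries. T libraries 1 and 2 were above all CON libraries and T library 3 was within the CON range, so 7 of the 9 pairs of a T and a CON library had the higher value in T. On the log2(TPM + 1) scale T minus CON was 0.23, standard error 0.17 (exact permutation test, two-sided p = 0.30; limma adjusted p = 0.245), which is within the spread between libraries. Without T library 1 it was 0.11, and without T library 3 it was 0.36 and the groups no longer overlapped. With a pseudocount of 0.01 it was 2.02 (limma adjusted p = 0.194).

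Lypd1 (ENSMUSG00000026344, chromosome 1 from 125795357 to 125841150, minus strand) had a narrow range in T and was barely listed in CON. Its T values were 0.36, 0.36 and 0.55 TPM, while CON library 1 had 0.28 TPM and CON libraries 2 and 3 were listed at 0. T minus CON was 0.39 on the log2(TPM + 1) scale, standard error 0.16 (exact permutation test, two-sided p = 0.10; limma adjusted p = 0.105). It lay between 0.32 and 0.51 with each library left out in turn, but with pseudocounts of 0.1 and 0.01 it was 1.73 and 3.79, so its size depends on the pseudocount set against the CON libraries at 0. CON library 1 was the CON library nearest to the T values.

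Sv2c (ENSMUSG00000051111, chromosome 13 from 96091102 to 96269085, minus strand), the vesicle gene, was the most evenly measured of the 7 in CON together with B3gat2. It had 2.42, 1.79 and 1.52 TPM in the CON libraries and 1.72, 0.93 and 0.82 TPM in the T libraries. Only T library 1 reached the CON range, where it exceeded CON library 3, so 1 of the 9 pairs had the higher value in T. Sv2c averaged 1.91 ± 0.462 TPM in CON and 1.16 ± 0.491 TPM in T (SD, n = 3 each). T minus CON on the log2(TPM + 1) scale was -0.44, standard error 0.22 (exact permutation test, two-sided p = 0.20; limma adjusted p = 0.133), and without T library 1 it was -0.62. The direction of Sv2c rested on the scaling, since after median-ratio scaling over the listed genes its difference was 0.019 (exact permutation test, two-sided p = 0.80).

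The glucuronyltransferase gene B3gat2 (ENSMUSG00000026156, chromosome 1 from 23800834 to 23888239, plus strand) had 0.20, 0.28 and 0.29 TPM in CON and 0.13, 0.12 and 0.01 TPM in T. All T libraries were below all CON libraries, with 2 T libraries close together and T library 3 near the last decimal that the table gives. CON averaged 0.257 ± 0.0493 TPM and T 0.0867 ± 0.0666 TPM (SD, n = 3 each), a ratio of CON to T of 2.96. Adding 1 to each TPM compresses differences of such low genes, and on that scale T minus CON was -0.21, standard error 0.12 (exact permutation test, two-sided p = 0.10; limma adjusted p = 0.162), and with a pseudocount of 0.01 it was -1.88. After median-ratio scaling the groups overlapped and the difference was -0.10 (exact permutation test, two-sided p = 0.20).

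Phyhip (ENSMUSG00000003469, chromosome 14 from 70680659 to 70706272, plus strand) differed between the group means through 1 library. It had 4.06, 0.37 and 0.53 TPM in the CON libraries and 0.38, 0.55 and 0.72 TPM in the T libraries. CON library 1 was 5.64 times the next highest library, and the other 5 libraries lay between 0.37 and 0.72 TPM. On that log2(TPM + 1) scale T minus CON was -0.51, standard error 0.53 (exact permutation test, two-sided p = 0.90; limma adjusted p = 0.389). In 5 of the 9 pairs of libraries T had the higher value, and without CON library 1 the difference turned to 0.093.

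Fabp7 (ENSMUSG00000019874, chromosome 10 from 57660956 to 57664554, plus strand) likewise rested on a single CON library. It had 0.12 TPM, 0 and 2.81 TPM in CON libraries 1, 2 and 3 and 0, 0.10 TPM and 0 in T libraries 1, 2 and 3. CON library 3 was 23.4 times the next highest library, and the remaining libraries were at or below 0.12 TPM in both groups. With all libraries T minus CON was -0.65 on the log2(TPM + 1) scale, standard error 0.54 (exact permutation test, two-sided p = 0.40; limma adjusted p = 0.292). With a pseudocount of 0.01 it was -2.79, and without CON library 3 at the pseudocount of 1 it was -0.036 (limma adjusted p = 0.776).

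**Figure D2:**
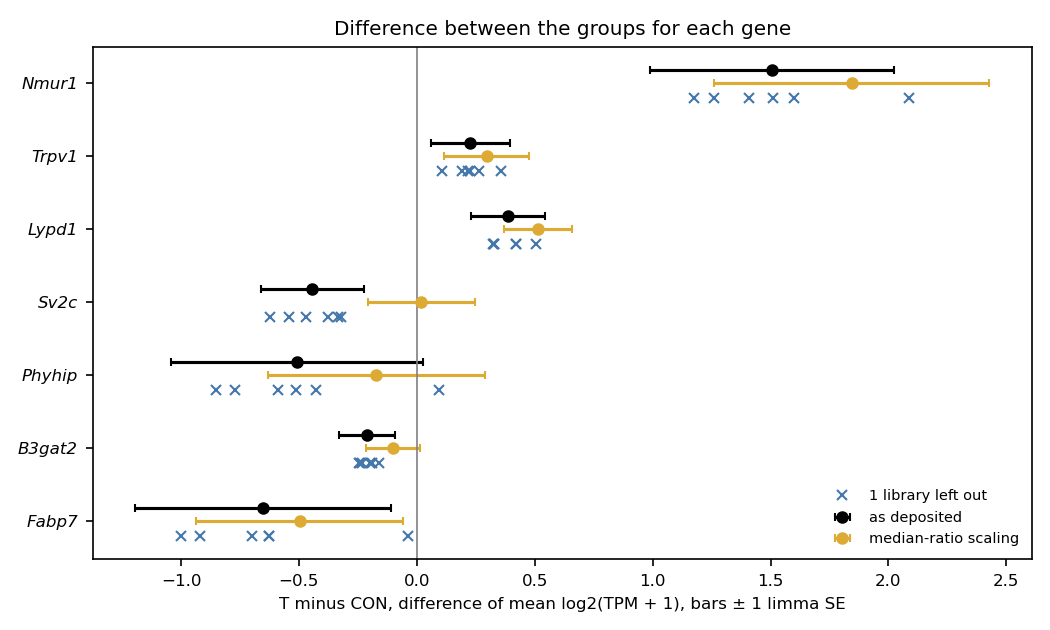
Difference of mean log2(TPM + 1), T minus CON, for each gene; black circles are the values as deposited and yellow circles those after median-ratio scaling, with bars of 1 limma standard error, and crosses are the differences with 1 library left out. Nmur1, Trpv1 and Lypd1 stay above 0 throughout, which the scaling could not change because it raises T and lowers CON. B3gat2 and Fabp7 stay below 0 throughout, Fabp7 at -0.036 without CON library 3. Sv2c crosses 0 after scaling (0.019) and Phyhip crosses it without CON library 1 (0.093).

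Within CON, the medians of the 3 libraries put Sv2c first at 1.79 TPM, followed by Phyhip at 0.53, Nmur1 at 0.41, B3gat2 at 0.28, Fabp7 at 0.12 and Trpv1 at 0.05 TPM, with Lypd1 at 0. The ranges of each pair of neighbours in that order overlapped. Within T, Nmur1 came first with a median of 4.59 TPM, followed by Sv2c at 0.93, Phyhip at 0.55, Lypd1 at 0.36, Trpv1 at 0.25 and B3gat2 at 0.12 TPM, with Fabp7 at 0. In T the ranges of Sv2c (0.82 to 1.72 TPM) and Phyhip (0.38 to 0.72 TPM) did not overlap, and the other neighbours in the order overlapped. The mean over all 6 libraries was at least 0.5 TPM for 4 of the 7 genes, and 3 of the 7 were listed at 0 in at least 1 library, beside 46.9% of all listed genes.

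The scaling mattered for the genes that were lower in T. Median-ratio scaling over the 104 listed genes above 0 in every library divided the CON libraries by 1.31 to 1.49 and the T libraries by 0.773 to 0.903, and with it the median difference of all listed genes went from -0.54 to -0.23. Since most listed genes had been lower in T, this scaling takes that imbalance of the list into the factors. After it 4 of the 7 genes were higher in T, and the groups stayed apart for 2, Nmur1 (difference 1.84) and Lypd1 (difference 0.51), both with T above CON, where 40.8% of all listed genes were without overlap and 49 of 196 (25%) had T above CON. These factors lower the CON values and raise the T values, so a gene with T above CON without overlap before scaling had to stay so. That Nmur1 and Lypd1 were above CON under both scalings is therefore no separate check. None of the 4 lower genes was without overlap after scaling, beside 31 of 196 listed genes (15.8%) with T below CON. Before scaling, 40 listed genes were above and 83 below.

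**Figure D3:**
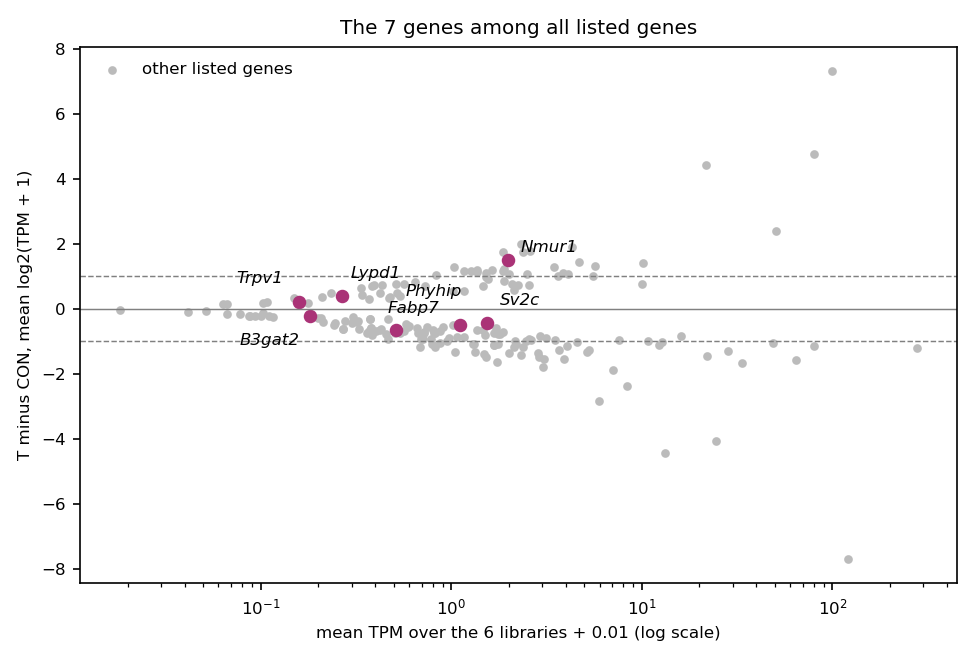
Difference of mean log2(TPM + 1), T minus CON, against mean TPM over the 6 libraries plus 0.01 (log axis) for the 196 listed genes; purple points are the 7 genes and dashed lines mark differences of -1 and 1. Nmur1 alone of the 7 lies outside the dashed lines, at 1.51.

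Few further genes of these families were in the table, which holds only 80 protein-coding genes. The annotation gave 21770 upstream windows of such genes, so a low count is no result about the families. Of 78 further genes of the neuromedin U system, the TRP channels, the synaptic vesicle genes, the Ly6 and nicotinic receptor genes, the HNK-1 genes, the phytanoyl-CoA hydroxylase group and the fatty acid binding proteins, 1 was listed, Fabp4, the fatty acid binding protein of fat cells. Nmur1 was the 1 listed gene of 4 in the neuromedin U system, so the ligands Nmu and Nms and the other receptor Nmur2 were not analysed here. Trpv1 was 1 of 26 TRP channel genes, Sv2c 1 of 15 vesicle genes, Lypd1 1 of 21 Ly6 and nicotinic receptor genes, B3gat2 1 of 6 HNK-1 genes and Phyhip 1 of 3 in its group. The fatty acid binding proteins had 2 of 10 listed, and Fabp4 had 3.60, 1.88 and 2.69 TPM in CON and 0.31, 1.43 and 0.62 TPM in T. Its T values were below CON without overlap, as for 42.3% of all listed genes, but the groups overlapped after median-ratio scaling. None of these genes passed limma at an adjusted p-value under 0.05 with a difference of at least 1, in either direction.

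Markers of the cell types that could carry neural transcripts could not be read from the table, which holds 0 of 17 neuron markers and 0 of 16 glia and Schwann cell markers. It also holds 0 of 16 germ cell, 0 of 13 Sertoli cell, 0 of 9 Leydig cell, 0 of 6 peritubular and smooth muscle, 0 of 12 macrophage and leukocyte, 0 of 6 red blood cell, 0 of 6 endothelial and 0 of 8 epididymal markers. The tissue label could therefore not be checked against its defining genes. Of 10 fat cell markers 3 were listed, Fabp4, Cfd and Car3, and their summed level was 4.78 to 15.5 TPM in CON and 0.40 to 3.82 TPM in T. All 3 were lower in T without overlap, as were 42.3% of all listed genes. These are values before median-ratio scaling, after which that share was 15.8%. With that scaling T library 2 exceeded CON library 2 for each of the 3, so their groups overlapped. CON library 1, in which Phyhip and Sv2c were highest, had the highest sum of these markers, 15.5 TPM. B3gat2 and Fabp7 were highest in CON library 3, where the sum was 7.99 TPM. The defining fat cell genes Adipoq and Plin1 were not analysed here. The part of fat cell RNA in the values of Phyhip, Sv2c, B3gat2 and Fabp7 was not tested.

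The annotated positions bear on how far 3 of the 7 genes can be read. B3gat2 shares 2175 of its exonic bases (35.1%) with exons of Smap1 on the opposite strand, between 23883954 and 23888239 of chromosome 1, and 233 of these bases are in its coding sequence. Lypd1 shares 1202 exonic bases (13.9%) with the zinc receptor gene Gpr39 on the opposite strand, between 125800107 and 125801308 of chromosome 1, and 233 of these are also in its coding sequence. Phyhip shares 174 bases (3.90%) with Polr3d, a subunit gene of RNA polymerase III, at its 5′ end between 70680659 and 70680845 of chromosome 14, and 0 of these are coding in Phyhip. The sample labels name a stranded library kit and the methods name another kit, and whether the counting used strand is not given in the sources used here, so reads of these genes and of the genes opposite them cannot be told apart in the shared stretches. None of Smap1, Gpr39 and Polr3d is in the table.

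**Figure D4:**
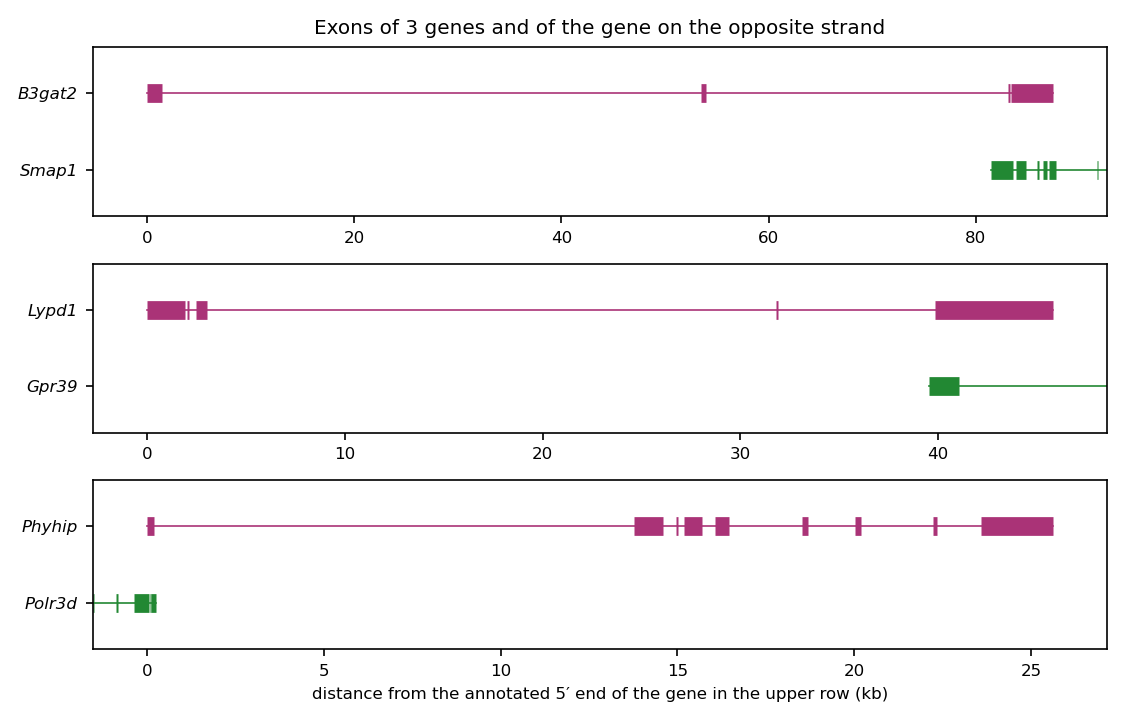
Annotated exons (blocks) and introns (lines) of B3gat2, Lypd1 and Phyhip in purple and of the gene on the opposite strand in green, by distance in kb from the annotated 5′ end of the purple gene. The shared exonic stretches lie at the 3′ end of B3gat2 (2175 bases), in the last exon block of Lypd1 (1202 bases) and at the first exon of Phyhip (174 bases).

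The remaining genes had little or no shared exonic sequence. Nmur1 and Trpv1 overlap no other annotated gene, while Sv2c shares 27 and 29 exonic bases with a pair of lncRNA genes and Fabp7 shares 7 with another. The most upstream Nmur1 start lies 100 bases from Tex44, a testis-expressed gene on the opposite strand, and the most upstream Lypd1 start lies 100 bases from Nckap5 on the same strand. Of the 50-base windows within exons, 0 recurred elsewhere in GRCm39 for Nmur1, Trpv1, B3gat2, Phyhip and Fabp7, and 1.14% did for Sv2c and for Lypd1. The nearest listed gene was at least 0.399 Mb away from each of the 7 genes, the distance between Fabp7 and Gm10807, so none of them sits beside another listed gene.

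The genes of the table with the profile most like each of the 7 were found by the mean absolute difference of standardised log2(TPM + 1) values over the 6 libraries, as a description. For Nmur1 the nearest were Gm12928 (0.122) and Gm20814 (0.137), which also had their lowest T value in T library 2. For Lypd1 they were 1700091H14Rik (0.118) and Gjb6 (0.248), a connexin gene with 0.20 TPM, 0 and 0 in the CON libraries and 0.28, 0.17 and 0.26 TPM in the T libraries. For Trpv1 they were Gm21242 (0.158) and Gm20749 (0.283), both listed at 0 in T library 3 and in all CON libraries. For B3gat2 they were Gm32050 (0.0746) and Gm47549 (0.111), and for Sv2c they were Gm56886 (0.269) and Mark1-ps2 (0.306). For Phyhip they were Gm16212 (0.0846) and the ribosomal protein gene Rps2 (0.225), which had 281 TPM in CON library 1 and between 34.1 and 46.8 TPM in the other libraries. For Fabp7 they were Gm21387 (0.0543) and Gm13316 (0.0798), which had 2.15 and 2.51 TPM in CON library 3 and at most 0.06 TPM elsewhere. None of these genes lies on the chromosome of the gene it resembles. Among the 7 genes themselves the closest profiles were those of Nmur1 and Lypd1, with a mean absolute difference of 0.589.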

How the data were processed

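Testis RNA was measured by RNA-seq in 6 libraries, 3 named CON and 3 named T. The authors aligned reads to GRCm39 with HISAT2, and counting is ascribed to HTSeq in the methods and to RSEM in the submitters' processing notes. The deposited values were taken as TPM, written to 2 decimals, although the methods name FPKM. The authors' columns of fold changes and p-values were not used, and 0 columns of library values were left unmatched. TPM keeps no read counts, so no counting error is given and no count model was run.

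Libraries were grouped by library name, as in the columns of group means. The members and gene lists were chosen with earlier results of these data known, and the genes named are the 7 members, listed genes of their families and the 2 genes with the likest profile. limma 3.58.1 in R 4.3.3 was run on log2(TPM + 1) of all 196 genes without a low-value filter, with Benjamini-Hochberg adjustment, and was tested on simulated data. Single genes were compared by an exact two-sided permutation test (scipy 1.17.1). If libraries of a group are not separate animals, p-values measure technical spread. Alternatives were pseudocounts of 0.1 and 0.01, a minimum mean of 0.5 TPM, median-ratio scaling, a variance trend, a replicate block, unadjusted p-values, ratios of means without a pseudocount and leaving out each library. Positions came from GENCODE vM39, which held 195 of the 196 identifiers, and sequences from the GRCm39 assembly.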

Additional observations from a re-analysis of the deposited data

How the results depend on the processing

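The number of listed genes called by limma, 8 as reported, was 15 and 16 with pseudocounts of 0.1 and 0.01, 4 with a minimum mean of 0.5 TPM, 19 after median-ratio scaling, 50 with the unadjusted p-value, 3 with the replicate block, and 3 to 35 with a library left out (35 without CON library 2, 25 without T library 2, and 3 without CON library 1 or T library 3). The cause of these shifts was not tested. Of the 7 genes, 0 were called as reported, 1 with the unadjusted p-value (Nmur1) and 0 to 1 with a library left out (Nmur1 without T library 2). CON and T were without overlap in 3 of the 7 and in 62.8% of all listed genes. After median-ratio scaling this held for 2 of the 7 and 40.8% of all listed genes. It held for 1 of the 4 genes left by the minimum mean of 0.5 TPM, and for 3 to 4 with a library left out. The share of all listed genes was not computed for these last settings, and fewer libraries overlap less readily. The minimum mean used all 6 libraries, and Nmur1 passed it through T (0.407 TPM in CON, 3.56 in T). Fabp7 passed it through CON library 3 (2.81 TPM), so that count is no separate check. The direction reversed for Sv2c after median-ratio scaling (0.019) and for Phyhip without CON library 1 (0.093, against -0.85 without CON library 2), and for no other of the 7 genes under these alternatives. Same-numbered libraries had correlations of deviations from the group means of 0.045, -0.026 and 0.097, the last being the highest of all pairs. Not every library correlated best with its own number. With 3 libraries per group and only listed genes, these values cannot decide whether the replicate numbers of the labels pair the libraries. The replicate block called 0 of the 7 genes. Values near 0.01 TPM are limited by the decimals of the table, and reads per value are unknown.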

Other observations

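Single libraries that stood at least 5 times above every other library, at 0.5 TPM or more, were counted after the values of Phyhip and Fabp7 had been seen. CON library 3 held 4 such genes of the 196 and CON library 1 held 3, T libraries 1 and 3 held 1 each, and CON library 2 and T library 2 held 0. Phyhip is among those of CON library 1 and Fabp7 among those of CON library 3.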
